A study of Mus musculus with 24 samples.

Results

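The T cell receptor probes are the probes of an Illumina mouse expression array whose identifiers name a variable, diversity, joining or constant region of a T cell receptor locus, that is, identifiers that begin with TRA, TRB, TRG or TRD followed by V, D, J or C. The rule found 52 of the 46120 probes, of which 21 were named for the alpha chain, 22 for the beta chain, 8 for the gamma chain and 1 for the delta chain. Of the 52, 51 were variable region probes, and the only constant region probe was TRGC4. They were measured in 8 tissues of male C57BL/6 mice aged 7 weeks, on 24 arrays, 3 to a tissue: a pool of pleural and pericardial mesothelium (pleural/pericardial mesothelium below), fat, which the study's methods list as subcutaneous adipose, peritoneal mesothelium, lung, bladder, heart, liver and skeletal muscle. No mouse carried a named mutation or treatment, and both kinds of mesothelium were dissected from a large pool of mice. Nothing in the labels says that the 3 arrays of a tissue came from separate animals or dissections, so the p-values below measure the spread between arrays, which may be technical.

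A T cell carries either an alpha chain paired with a beta chain or a gamma chain paired with a delta chain. Each chain is assembled in the thymus by the recombinase RAG, which joins 1 of many variable (V) segments to joining segments, and in beta and delta chains to a diversity segment as well, and the joined segments are then spliced to a constant region. A V segment probe therefore reports only transcripts that hold that segment, while a constant region probe reports nearly all transcripts of its chain. The receptor reaches the surface with the CD3 proteins, which carry its signal into the cell. Mesothelium, the single cell layer that lines the body cavities, is not itself a source of rearranged receptors, and in bulk tissue RNA fewer T cells and less receptor RNA per cell cannot be told apart.

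Most of the T cell receptor probes were not detected on any array, and most of those that were detected belonged to the beta chain. A probe was called detected where its detection p, computed by the authors' software from negative control beads, was below 0.01. By this limit 12 of the 52 probes (23.1%) were detected on at least 1 of the 24 arrays, against 42.9% of all probes and 178 of the 300 immunoglobulin probes (59.3%). The 12 comprised 9 of the 22 beta probes (40.9%), 2 of the 21 alpha probes (9.52%), 1 of the 8 gamma probes (12.5%) and not the delta probe. Detection on all 3 arrays of a tissue was reached by 3 probes, TRBV1, TRBV11 and TRBV12-2, or 5.77% of the members, against 33.7% of all probes. Few probes of the gamma and delta chains were on the array, so their counts carry little weight, and a probe that was not detected may be a probe that hybridises weakly as well as a segment that is little used.

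Signals are given below as log2 intensities after background correction and quantile normalization over the 24 arrays, a scale on which the lowest signal of a detected probe lay between 6.06 and 7.24, depending on the array. Because probes differ in how strongly they hybridise, each probe is compared only with itself in other tissues. The 3 arrays of each tissue are given in the order of the replicate numbers in the labels, a number that names an array and sets no order. Between 8862 and 13441 probes were detected on an array. The fat arrays had 11293, 12181 and 13087 of them and the pleural/pericardial arrays 13441, 12176 and 13335.

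TRBV12-2, annotated as a V segment, was the member with the highest mean over all arrays and was detected on 16 of the 24 arrays. Its signals were 8.39, 7.01 and 7.95 in pleural/pericardial mesothelium, 6.14, 7.83 and 8.30 in fat, 6.08, 6.27 and 5.99 in peritoneal mesothelium and 6.46, 6.91 and 6.39 in lung. In the remaining tissues they were 6.56, 6.18 and 6.05 in bladder, 7.01, 6.70 and 6.74 in heart, 6.93, 7.21 and 6.62 in liver and 7.22, 6.80 and 7.18 in skeletal muscle. All 3 pleural/pericardial arrays lay above all 3 peritoneal arrays, but array 2 of pleural/pericardial mesothelium lay within the range of liver and muscle and level with the highest heart array, and array 1 of fat lay within the range of peritoneal mesothelium and bladder. By mean the order was pleural/pericardial mesothelium (7.78 ± 0.70), fat (7.43 ± 1.13), muscle (7.07 ± 0.23), liver (6.92 ± 0.29), heart (6.82 ± 0.17), lung (6.59 ± 0.28), bladder (6.26 ± 0.26) and peritoneal mesothelium (6.11 ± 0.15; SD, n = 3 each), and each tissue overlapped with its neighbour in this order.

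TRBV1, annotated as a V segment and placed at the start of the beta locus, was detected on 7 arrays. Its signals were 9.02, 7.23 and 8.49 in pleural/pericardial mesothelium, 5.95, 7.18 and 8.58 in fat, 5.51, 5.41 and 5.41 in peritoneal mesothelium and 5.85, 6.62 and 5.76 in lung. The 3 pleural/pericardial arrays lay above every array of the 5 other non-mesothelial tissues but fat, where array 3 lay above 2 of the 3 pleural/pericardial arrays. The closest of those 5 tissues was skeletal muscle, with 7.13, 6.27 and 5.74, and its mean of 6.38 ± 0.70 differed little from liver (6.25 ± 0.56), heart (6.12 ± 0.36), lung (6.08 ± 0.47) and bladder (5.83 ± 0.14; SD, n = 3 each).

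TRBV11, annotated as a V segment pseudogene, was detected on 6 arrays and was close to background in most other tissues. Its signals were 8.63, 6.78 and 7.89 in pleural/pericardial mesothelium, 5.79, 7.82 and 8.48 in fat, 5.64, 5.38 and 5.61 in peritoneal mesothelium and 5.91, 6.42 and 5.87 in lung. The means of bladder, heart, liver and muscle lay between 5.53 and 5.67. All 3 pleural/pericardial arrays and arrays 2 and 3 of fat stood above the 18 arrays of the other 6 tissues, while array 1 of fat lay among them.

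The other 6 detected beta probes were high on the same arrays. TRBV7, a pseudogene, gave 7.96, 6.13 and 7.72 in pleural/pericardial mesothelium, 5.27, 6.85 and 7.96 in fat and 4.71, 5.71 and 5.51 in peritoneal mesothelium. TRBV31, the V segment at the far end of the locus, gave 7.71, 5.83 and 7.09 in pleural/pericardial mesothelium, 5.10, 5.76 and 7.17 in fat and 4.86, 5.21 and 4.99 in peritoneal mesothelium. In each of these probes arrays 1 and 3 of pleural/pericardial mesothelium and array 3 of fat were high, and array 1 of fat was at the level of peritoneal mesothelium. TRBV6, also a pseudogene, gave 7.40, 6.06 and 7.18 in pleural/pericardial mesothelium and 5.76, 6.58 and 7.35 in fat, but liver, with 7.16, 6.57 and 5.74, overlapped with both. TRBV8, TRBV12-1 and TRBV13-1 were each detected on 3 arrays, and their highest signals, 7.14, 7.26 and 7.37, were all on array 1 of pleural/pericardial mesothelium.

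**Figure D1:**
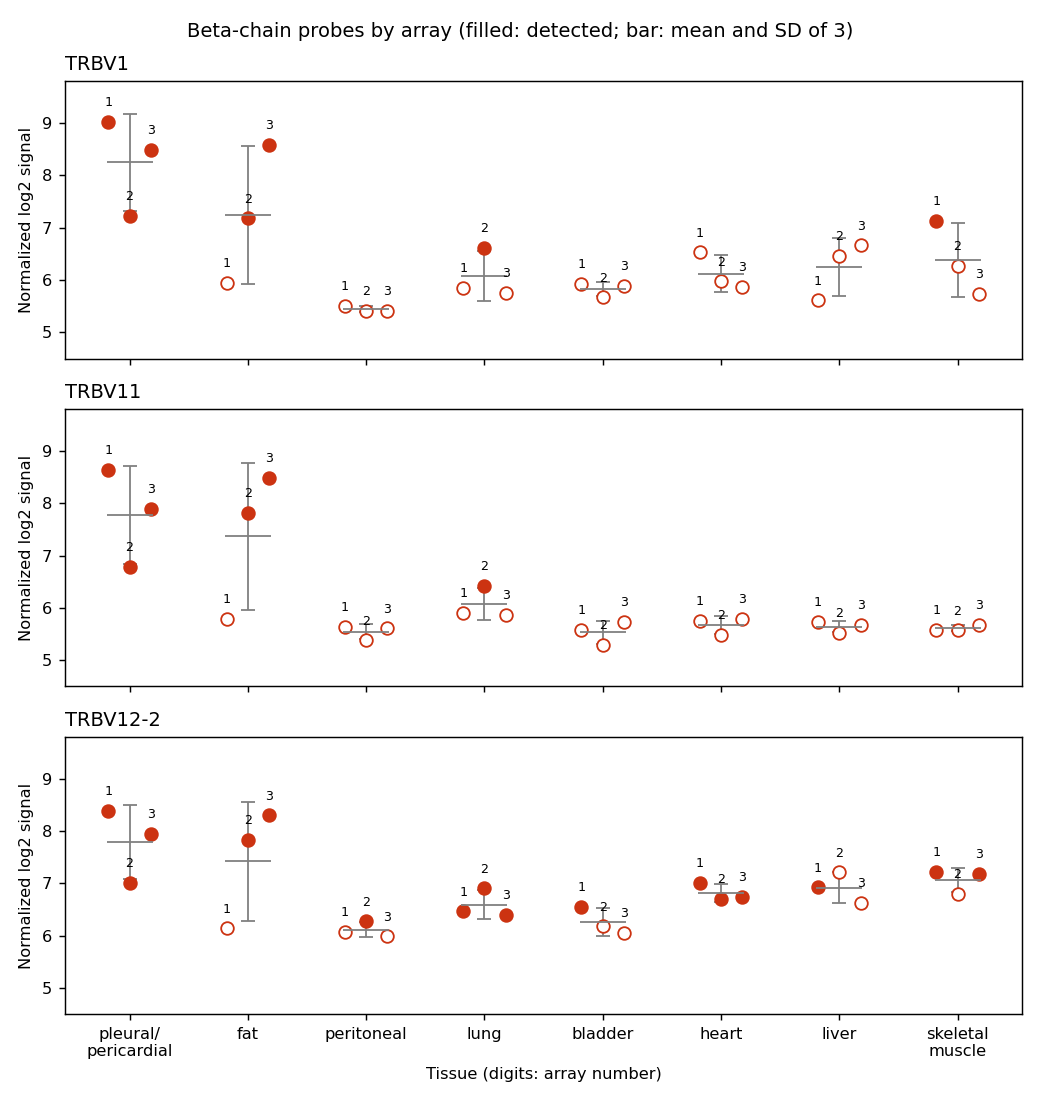
Normalized log2 signal of TRBV1, TRBV11 and TRBV12-2 (1 panel each) by tissue, with 1 point for each of the 24 arrays labelled by its number, filled where the probe was detected, and a bar for the mean and SD of 3 arrays. The pleural/pericardial points and arrays 2 and 3 of fat are filled in all panels, and array 1 of fat is open in all, at 5.95, 5.79 and 6.14.

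The 21 alpha probes stayed near background in every tissue, with signals between 4.57 and 6.70. TRAV6-1, a V segment and the alpha probe with the highest mean, was detected on array 3 of pleural/pericardial mesothelium, array 3 of fat and array 2 of lung. Its signals were 5.03, 5.64 and 6.16 in pleural/pericardial mesothelium, 5.73, 6.17 and 6.45 in fat, 5.26, 5.43 and 5.90 in peritoneal mesothelium and 5.39, 6.43 and 6.70 in liver. These overlap, and the highest value of all was in liver, where it was not called detected. TRAV7D-3 was detected on array 1 of pleural/pericardial mesothelium alone, at 6.20 beside 4.85 and 5.27 on the other two arrays, and TRAV9D-2, the alpha probe with the next highest mean, was detected on none, with 5.12, 5.40 and 5.47 in pleural/pericardial mesothelium and 5.65, 5.13 and 5.60 in fat.

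The gamma and delta probes were dim as well. TRGV4, a gamma V segment, was detected on array 3 of fat only, where it reached 6.17 beside 5.34 and 5.85 on the other fat arrays, and it gave 5.58, 5.70 and 5.73 in pleural/pericardial mesothelium. TRGV6 gave 5.56, 5.46 and 5.43 in pleural/pericardial mesothelium and 4.79, 5.29 and 5.63 in fat, and was detected nowhere. TRGC4, the constant region probe, gave 5.37, 5.27 and 4.98 in pleural/pericardial mesothelium, 4.80, 5.12 and 5.05 in fat and 4.98, 4.83 and 4.87 in peritoneal mesothelium, without detection on any array, so no constant region among the members reported the total of a chain. TRDV5, the delta probe, lay between 4.64 and 5.08 on all 24 arrays.

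**Figure D2:**
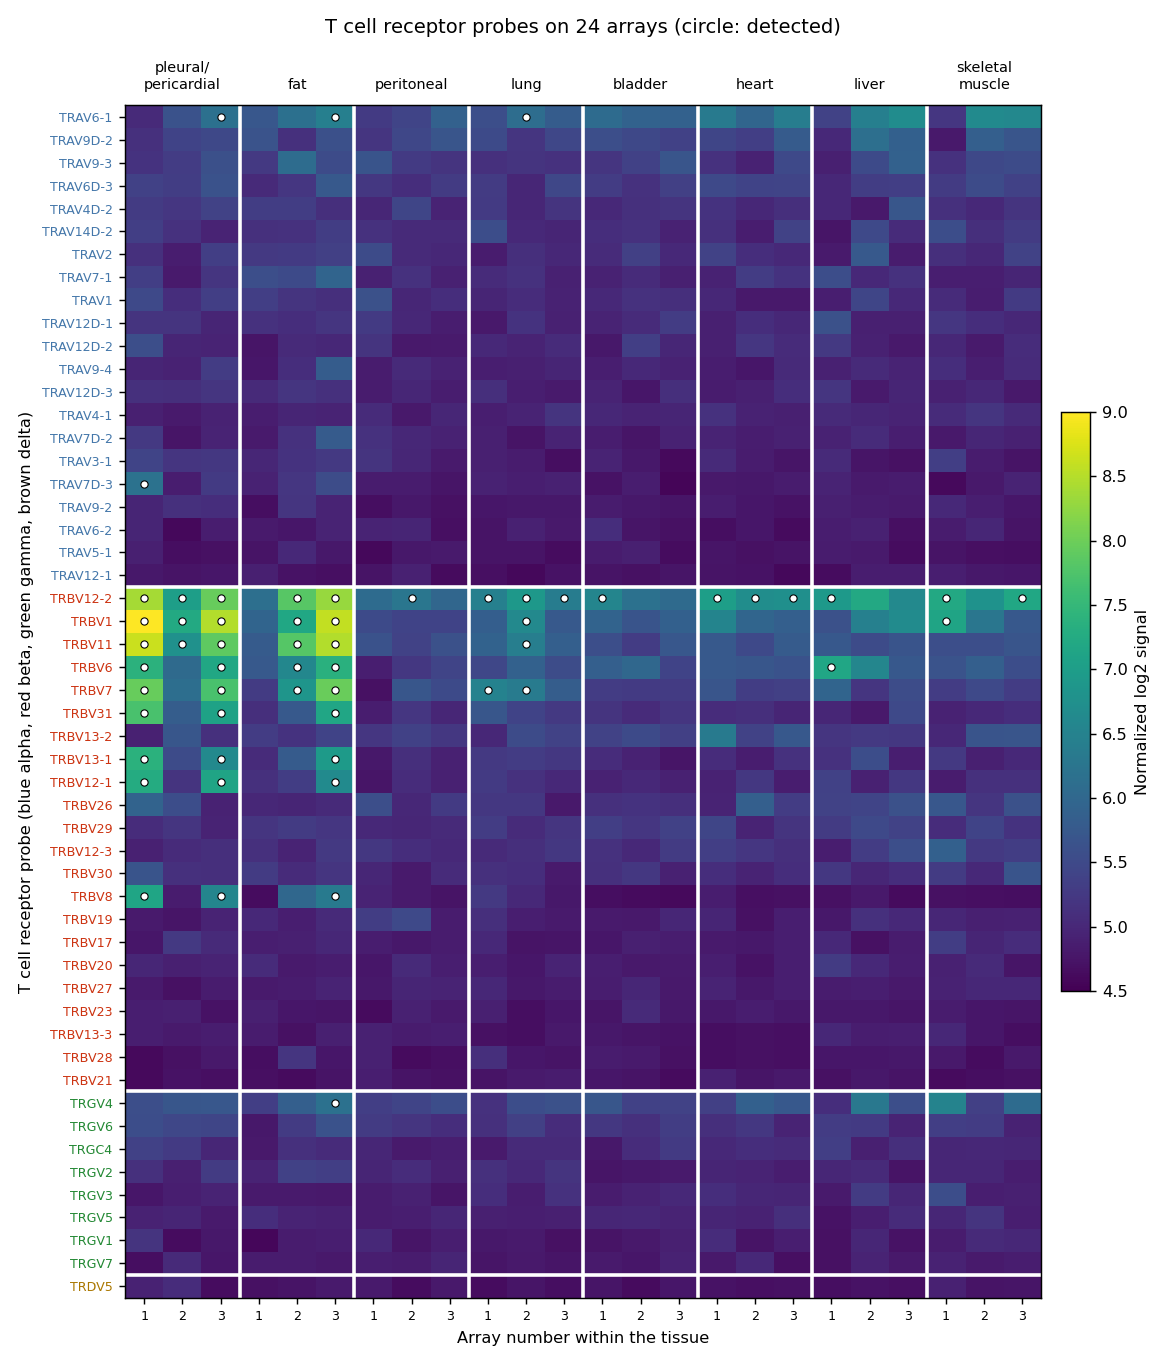
Normalized log2 signal of the 52 T cell receptor probes (rows, grouped by chain and ordered by mean) on the 24 arrays (columns, grouped by tissue), with a circle where a probe was detected. The brightest cells lie in 9 of the 22 beta rows, mainly on arrays 1 and 3 of pleural/pericardial mesothelium and arrays 2 and 3 of fat, and the alpha, gamma and delta rows hold 5 circles in all.

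The detected beta probes were those of particular stretches of the locus. In the order of the beta V segments in the RefSeq gene table, which was set beside the values after these had been seen, all 8 probes between TRBV1 and TRBV12-2 (positions 1 to 14 of 35) were detected on at least 1 array. None of the 13 probes between TRBV13-2 and TRBV30 (positions 15 to 34) was detected, and TRBV31, at position 35, was. With the looser detection limit of 0.05, 2 of the 13 were detected, TRBV13-2 and TRBV26, on 1 array each. The first 8 probes were 1.34 to 2.80 higher in pleural/pericardial than in peritoneal mesothelium (median 1.69, log2), and the 13 that followed differed by −0.38 to 0.34 (median −0.02), values that follow in part from setting the stretches by detection. Neighbouring probes of similar name fell on either side, with TRBV12-1, TRBV12-2 and TRBV13-1 detected and TRBV12-3, TRBV13-2 and TRBV13-3 not. The RefSeq annotation as V segment or pseudogene did not separate them, since 5 of the 14 beta probes annotated as V segments and 4 of the 8 annotated as pseudogenes were detected. For the probes taken from long sequence records, position cannot be told apart from the record used to design the probe. All 5 probes taken from 1 long record were detected and all 7 taken from another were not. Each of the other beta probes, among them those of the TRBV12 and TRBV13 names above, came from a record of its own.

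The first comparison asks which receptor probes differed between the 2 sources of mesothelium. A probe was called, following the study's criterion, where limma's B-statistic was above 0 and the mean differed at least 2-fold. Called higher in pleural/pericardial than in peritoneal mesothelium were 4 of the 52 members, TRBV1, TRBV11, TRBV31 and TRBV6, all of the beta chain, against 1.2% of all probes. None was called lower (1.6% of all probes), and the only member lower at an unadjusted limma p under 0.05 was TRBV19 (difference −0.38, with 7.63% of all probes lower at that limit), which no array detected.

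TRBV1 had a mean of 8.24 ± 0.92 in pleural/pericardial and 5.44 ± 0.06 in peritoneal mesothelium (SD, n = 3 each), a difference of 2.80 (SE 0.52, limma adjusted p = 0.00145). Since no peritoneal array detected it, the signal was at least 4.16-fold higher, taking the dim group at the lowest signal a detected probe had on each of its arrays or at the probe's own value where that was higher. TRBV11 differed by 2.23 (SE 0.47, limma adjusted p = 0.00449), at least 2.99-fold. TRBV31 differed by 1.85 (SE 0.40, adjusted p = 0.00599) and TRBV6 by 1.70 (SE 0.37, adjusted p = 0.00626), and for each the bound was at least 1.61-fold, below the 2-fold limit that their fitted means passed. TRBV12-2 differed by 1.67 (SE 0.39, adjusted p = 0.0107) with a B-statistic of −0.27 and was not called. TRBV7 differed by 1.96 (adjusted p = 0.0189), TRBV12-1 by 1.61 (adjusted p = 0.0164) and TRBV8 by 1.34 (adjusted p = 0.0616), and none of these was called.

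By an adjusted p under 0.05 alone, 8 members were higher in pleural/pericardial mesothelium, again all beta, against 2.39% of all probes. In 16 members (5 alpha, 9 beta and 2 gamma) all 3 pleural/pericardial arrays lay above all 3 peritoneal arrays, against 8.02% of all probes. The median difference was 0.08 over the alpha probes, 0.19 over the beta probes, 0.08 over the gamma probes and 0.12 for the delta probe, beside −0.01 over all probes. The alpha differences ran between −0.12 and 0.63 and the gamma differences between −0.07 and 0.31, while the beta differences ran between −0.38 and 2.80.

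The count of 4 rested on single arrays. Without array 1 of pleural/pericardial mesothelium no member was called, without its array 3 or any 1 of the 3 peritoneal arrays only TRBV1 was, and without its array 2 the count was 9, all beta. It was 7 without array 1 of fat and 8 without array 3 of fat, arrays that enter through the shared estimate of the spread. With the array number as a block, TRBV6 lost its call and 3 members kept it. In the fits that left out an array, here and below, only members were counted. Such fits do not show whether the calls over all probes moved as well.

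**Figure D3:**
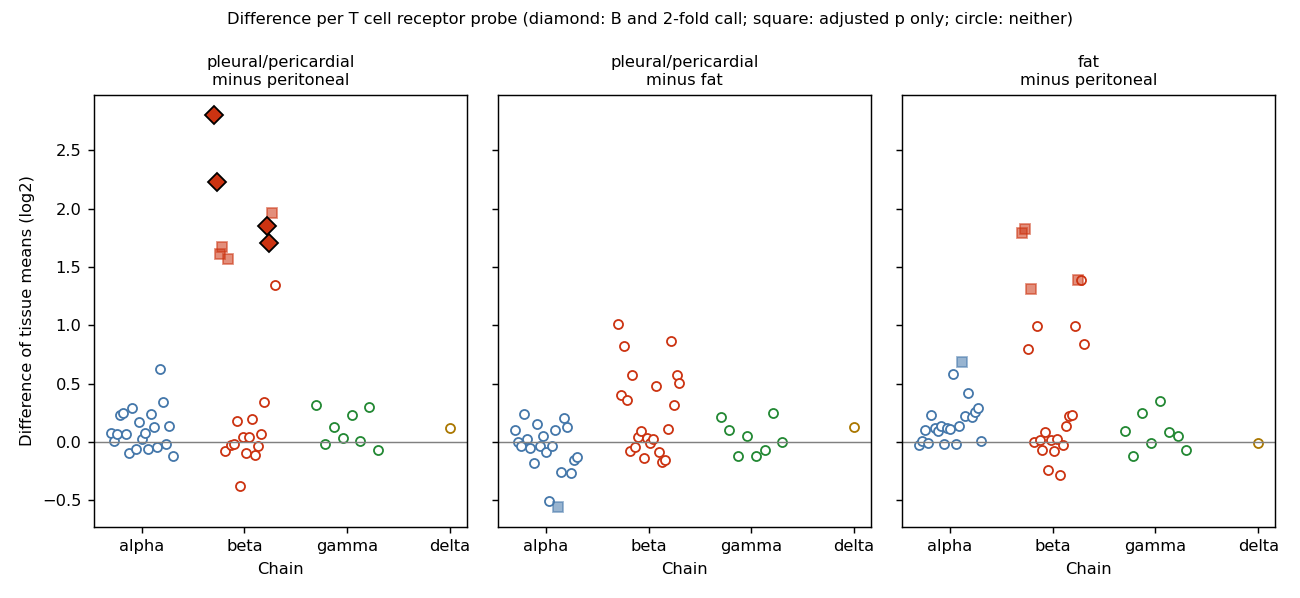
Difference of tissue means (log2) for each T cell receptor probe, by chain, in 3 panels: pleural/pericardial minus peritoneal mesothelium, pleural/pericardial mesothelium minus fat, and fat minus peritoneal mesothelium. Diamonds mark probes past the B-statistic and 2-fold criterion, squares those past the adjusted p alone and circles the others, and the 4 diamonds are all beta probes in the first panel.

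Pleural/pericardial mesothelium and fat could not be separated by any receptor probe at the study's criterion. No member was called higher (1.66% of all probes) or lower (1.29%) in pleural/pericardial mesothelium than in fat, and at an unadjusted limma p under 0.05 there was 1 beta probe higher, TRBV31 (difference 0.86, with 6.81% of all probes higher at that limit), and 1 alpha probe lower (8.61%). TRBV1 was 1.01 higher in pleural/pericardial mesothelium (SE 0.52, limma adjusted p = 0.376), TRBV11 0.40 (SE 0.47, adjusted p = 0.808) and TRBV12-2 0.36 (SE 0.39, adjusted p = 0.792). These tests do not show that the levels were alike. By adjusted p alone no member was higher (2.89% of all probes) and the single member that was lower was TRAV7-1, an alpha V segment, with 5.33, 4.82 and 5.20 in pleural/pericardial mesothelium and 5.58, 5.51 and 5.95 in fat (difference −0.56, adjusted p = 0.033, with 3.32% of all probes lower at that limit), but it was detected on no array. Immunoglobulin probes, in contrast to the receptor probes, were called higher in pleural/pericardial mesothelium than in fat in 138 of 300 cases. Without array 2 of pleural/pericardial mesothelium 1 member, TRBV12-1, was called higher, and without array 1 of fat the differences of TRBV11 and TRBV12-2 turned to −0.38 and −0.28.

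Against the other non-mesothelial tissues the calls were few. Pleural/pericardial mesothelium exceeded bladder for TRBV1 and TRBV11 (3.44% of all probes were called) and heart for TRBV31 (3.81%), and no member was called against lung (3.08%), liver (6.32%) or muscle (6.13%). At an unadjusted limma p under 0.05, 12 members were higher than in lung (10.9% of all probes), 10 higher than in liver (14.6%) and 10 higher than in muscle (14.1%). By adjusted p alone, 8 members exceeded lung (6.71% of all probes), 11 bladder (6.6%), 8 heart (8.24%), 8 liver (11.4%) and 9 muscle (11.1%). Against lung, TRBV1 was 2.17 higher (limma adjusted p = 0.00536), TRBV11 1.70 (adjusted p = 0.0153) and TRBV12-2 1.20 (adjusted p = 0.0461). No member was called higher in pleural/pericardial mesothelium than in each of the 6 non-mesothelial tissues, fat included (0.431% of all probes, and 1 member, TRBV31, at unadjusted p-values under 0.05 in limma, beside 1.33% of all probes). Without array 2 of pleural/pericardial mesothelium that count was 1.

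Fat exceeded peritoneal mesothelium in the means of the same beta probes, but with a spread between the fat arrays that kept every member below the study's criterion. None was called (1.29% of all probes), and 9 members, 7 of them beta, were higher at an unadjusted limma p under 0.05 (10.1% of all probes). By adjusted p alone 5 members were higher in fat, against 4.74% of all probes. TRBV11 had a mean of 7.36 ± 1.40 in fat and 5.54 ± 0.14 in peritoneal mesothelium (SD, n = 3 each), a difference of 1.82 (SE 0.47, adjusted p = 0.0138) or at least 2.26-fold. TRBV1 differed by 1.79 (SE 0.52, adjusted p = 0.0298), at least 2.07-fold, TRBV6 by 1.39 (adjusted p = 0.0186) and TRBV12-2 by 1.31 (SE 0.39, adjusted p = 0.036). TRAV7-1 differed by 0.69 (SE 0.15, adjusted p = 0.00519) at signals where no array detected it. The median difference was 0.12 over the alpha probes, 0.18 over the beta probes and 0.07 over the gamma probes, beside 0.02 over all probes. Without array 1 of fat, 5 members were called, TRBV1, TRBV6, TRBV7, TRBV11 and TRBV12-2, with differences of 2.61 for TRBV11, 2.44 for TRBV1 and 1.95 for TRBV12-2. Array 1 was the low fat array in these probes, so this fit shows how the count depends on that array and is no separate support. Without array 2 or array 3 of fat no member was called. Without array 3 the differences were 1.26 for TRBV11, 1.12 for TRBV1 and 0.87 for TRBV12-2.

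Fat and lung differed less. TRBV11 was 1.30 higher in fat than in lung (limma adjusted p = 0.0743), TRBV1 1.16 (adjusted p = 0.181) and TRBV12-2 0.84 (adjusted p = 0.21). No member was called higher in fat than in each of the 5 other non-mesothelial tissues (0.646% of all probes, and 2 members, TRBV11 and TRAV7-1, at unadjusted p-values under 0.05 in limma, beside 3.19% of all probes), and 1 was without array 1 of fat. Over all 8 tissues together, 10 of the 52 members, 9 beta probes and TRAV7-1, had an adjusted p under 0.05 in limma's F test, against 40.3% of all probes. The smallest of these was that of TRBV11 (adjusted p = 0.000846), followed by TRBV1 (adjusted p = 0.00302). Leaving out array 1 or array 3 of pleural/pericardial mesothelium left 6 members in this count.

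The single arrays of fat differed widely in the receptor probes they detected. Array 3 of fat detected 11 members, array 2 detected 5 and array 1 detected none, and of these 9, 5 and 0 were beta probes. The share of all probes detected was 28.4%, 26.4% and 24.5% on these arrays. Those 9 beta probes exceeded their array 1 signal by 1.53 to 2.69 on array 3 and by 0.19 to 2.02 on array 2, sizes given as a description, because the probes were chosen by detection and all were detected on array 3 and not on array 1. Over all 22 beta probes, detected or not, 19 were higher on array 3 than on array 1, with a median of 0.12 and a highest difference of 2.69. Over the 21 alpha probes 17 were higher, with a median of 0.19 and a highest difference of 1.05, and over the 8 gamma probes 5 were, with a median of 0.27 and a highest difference of 0.84. The beta chain thus stood out between these arrays in its largest differences and not in its median.

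The pleural/pericardial arrays were uneven as well, with array 2 the low one. Arrays 1 and 3 detected 10 members each and array 2 detected 3, of which 9, 9 and 3 were beta probes. The share of all probes detected was 29.1%, 26.4% and 28.9% on arrays 1, 2 and 3. The 9 beta probes, all of them detected on arrays 1 and 3, exceeded their array 2 signal by 1.34 to 2.30 on array 1 and by 0.93 to 1.95 on array 3, again as a description of probes chosen by detection. Over all 22 beta probes 15 were higher on array 1 than on array 2, with a median of 0.25, and over the 21 alpha probes 17 were, with a median of 0.07 and a highest difference of 1.35. The 3 probes detected on array 2 were TRBV1, TRBV11 and TRBV12-2.

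In every other tissue few members were detected, with 0, 1 and 0 on the peritoneal arrays, 2, 5 and 1 on the lung arrays, 1, 0 and 0 on the bladder arrays, 1, 1 and 1 on the heart arrays, 2, 0 and 0 on the liver arrays and 2, 0 and 1 on the muscle arrays. Array 2 of lung thus resembled array 2 of fat in this count. The sets of detected probes overlapped across tissues. Array 3 of fat and array 3 of pleural/pericardial mesothelium shared 10 probes, which were 90.9% of the fat array's and 100% of the mesothelial array's, and all 5 probes of array 2 of fat were among the 10 of array 1 of pleural/pericardial mesothelium.

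**Figure D4:**
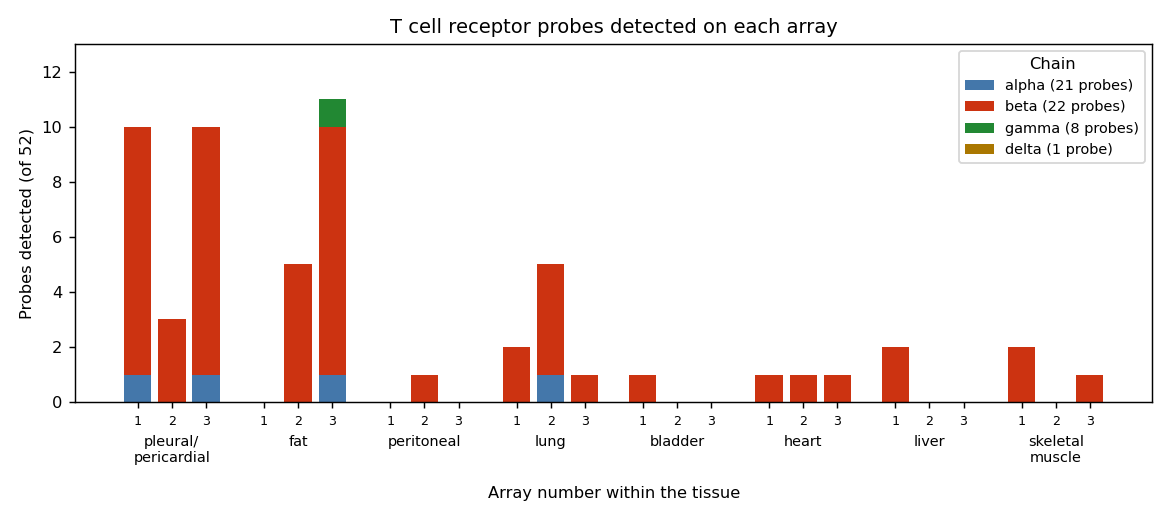
Number of T cell receptor probes detected (detection p below 0.01) on each of the 24 arrays, split by chain, with the tissues along the axis. The pleural/pericardial arrays have 10, 3 and 10, the fat arrays 0, 5 and 11, and no other array exceeds 5.

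Over the 24 arrays the 36 pairs among the 9 beta probes had Pearson correlations between 0.715 and 0.954 with a median of 0.880. All 9 had been chosen by detection and were detected on the same 3 arrays, arrays 1 and 3 of pleural/pericardial mesothelium and array 3 of fat, so that high correlations follow in large part from the choice. Over the 22 beta probes, which differ in hybridisation as well as in use, array 3 of fat and array 3 of pleural/pericardial mesothelium had r = 0.989, while array 1 of fat and array 1 of pleural/pericardial mesothelium had r = 0.707.

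The genes whose signals were most like that of TRBV12-2 over the 24 arrays, among 10082 probes with 1 gene name, were mostly genes of lymphocytes. They included Trat1, an adaptor of the T cell receptor (r = 0.872), Ccl19, a chemokine of lymphoid stroma (r = 0.853), Tespa1 (r = 0.821), which acts in thymocyte receptor signalling, and Cd8b1, the beta chain of the CD8 co-receptor (r = 0.807). Also among them were Ripor2 (r = 0.806), Kif21b (r = 0.782), Cd247, the CD3 zeta chain (r = 0.784), and the T cell signalling adaptors Sh2d2a (r = 0.801) and Sh2d1a (r = 0.792). For TRBV11, which was looked at after its values were seen, the closest included Cd8b1 (r = 0.963) and Sh2d2a (r = 0.936).

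Receptor probes outside the rule, whose identifiers carry a gene number instead of a segment name, gave a wider range. These 13 probes were examined after their values had been seen. Of them 8 were detected on no array, among them a probe whose number belongs to Tcrb, the beta chain locus. Trav5-4 was detected on 1 array, and Trdv2-2, a delta V segment, was detected on 8 and was highest in liver (7.39 on array 3). The other 3 are described because they were high on the same arrays as the beta probes. One was a probe whose gene number belongs to Trbv31, though which part of the beta locus it measures is not settled here. It was detected on 21 arrays, with signals of 14.47, 12.88 and 13.56 in pleural/pericardial mesothelium, 9.03, 14.13 and 14.04 in fat, 9.19, 9.31 and 9.08 in peritoneal mesothelium and 12.07 on the brightest lung array. Array 1 of fat lay at the peritoneal level, far below the other two fat arrays. A probe whose number belongs to Tcra, the alpha chain locus, gave 10.43, 8.99 and 9.32 in pleural/pericardial mesothelium, 6.44, 11.42 and 10.71 in fat and 6.14, 6.10 and 6.18 in peritoneal mesothelium, a pattern over the fat arrays like that of the beta probes. It was 3.44 higher in pleural/pericardial and 3.38 higher in fat than in peritoneal mesothelium. These sizes are a description only, because the probe was picked for being high on these arrays. A probe whose number belongs to Trgv4, a gamma V segment, gave 8.15, 6.84 and 7.05 in pleural/pericardial mesothelium, 5.12, 7.78 and 7.89 in fat and 5.68, 6.06 and 6.26 in peritoneal mesothelium. The member TRGV4 did not exceed 6.17 in these 3 tissues, and which part of the gamma locus the other probe measures is not settled here.

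The other genes of the receptor complex were read from a list of 16 CD3 and signalling genes, of which 8 could be named on the array by 11 probes. By adjusted p, 2 of the 11 were higher in pleural/pericardial than in peritoneal mesothelium, 3 higher in fat than in peritoneal mesothelium, none differed between pleural/pericardial mesothelium and fat, and none was lower in any of these. Cd3e, a chain of CD3, gave 11.66, 9.84 and 10.62 in pleural/pericardial mesothelium, 6.52, 11.63 and 11.37 in fat and 7.60, 7.01 and 6.48 in peritoneal mesothelium. It was 3.68 higher in pleural/pericardial (limma adjusted p = 0.0121) and 2.81 higher in fat (adjusted p = 0.0458) than in peritoneal mesothelium. The mean of the list by array was 7.03, 6.06 and 6.60 in pleural/pericardial mesothelium, 5.29, 7.08 and 7.12 in fat and 5.53, 5.52 and 5.49 in peritoneal mesothelium. Within fat array 1 was the low one and within pleural/pericardial mesothelium array 2 was, as for the beta probes.

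Among T cell surface genes (6 of 18 named, 7 probes) 2 probes were higher in pleural/pericardial and 4 higher in fat than in peritoneal mesothelium by adjusted p. Cd8b1 gave 8.30, 6.33 and 7.19 in pleural/pericardial mesothelium, 4.93, 7.39 and 6.84 in fat and 4.76, 4.80 and 4.70 in peritoneal mesothelium, and it was 2.52 higher in pleural/pericardial than in peritoneal mesothelium (limma adjusted p = 0.000809). Among T cell transcription factors (8 of 11 named, 9 probes) 2 were higher in pleural/pericardial and 1 higher in fat than in peritoneal mesothelium. Bcl11b, a factor that sets T cell identity, gave 10.56, 8.61 and 9.99 in pleural/pericardial mesothelium, 5.23, 10.61 and 9.87 in fat and 6.18, 5.79 and 5.49 in peritoneal mesothelium. Natural killer genes, represented by Klrk1 alone, were detected on no array.

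Markers of other tissues moved with the receptor probes, and differently in pleural/pericardial mesothelium and in fat. Thymic epithelium (3 of 8 genes named, 3 probes) and developing thymocytes (5 of 9 genes, 5 probes) had 3 and 2 probes called higher in pleural/pericardial mesothelium than in fat, and as many than in peritoneal mesothelium. Rag1, the recombinase of developing lymphocytes, gave 10.21, 7.75 and 8.46 in pleural/pericardial mesothelium and 5.63, 5.34 and 5.70 in fat (difference 3.25, limma adjusted p = 7.21e-06). Tbata, a gene of thymic epithelium, gave 11.29, 9.08 and 10.43 in pleural/pericardial mesothelium and 5.02, 5.06 and 4.95 in fat (difference 5.26, adjusted p = 1.63e-09). Both were low on array 2 of pleural/pericardial mesothelium, as the beta probes were. Rag1, Dntt, Tbata and Prss16 are also in a list the study picked on these arrays, so their direction is not independent evidence. The mean of the thymocyte list was 6.97, 5.60 and 6.67 on the pleural/pericardial arrays and lay between 5.25 and 5.28 on the fat arrays, where none of its probes was detected.

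In fat the genes of lymph node stroma moved with the receptor probes (5 of 9 genes named, 6 probes). Their mean was 6.16, 10.68 and 11.03 on the fat arrays, 9.62, 8.63 and 9.17 on the pleural/pericardial arrays and 7.50, 6.83 and 6.95 on the peritoneal arrays. Ccl21a, a chemokine that draws T cells into lymph nodes, gave 5.16, 12.63 and 12.58 in fat, 9.48, 8.14 and 8.58 in pleural/pericardial mesothelium, 7.98, 6.88 and 7.31 in peritoneal mesothelium and 10.74, 10.69 and 10.54 in lung. Fcer2a, the low affinity IgE receptor of B cells, gave 5.12, 9.66 and 9.88 in fat and 9.09, 8.81 and 8.95 in pleural/pericardial mesothelium. The list of B cells and plasma cells (3 of 11 genes named, 4 probes) did not follow it over the fat arrays, with means of 5.60, 5.12 and 5.24 in fat, 6.49, 5.92 and 6.20 in pleural/pericardial mesothelium and 5.52, 5.43 and 5.23 in peritoneal mesothelium. Immunoglobulin probes detected numbered 5, 59 and 81 on the fat arrays, 154, 145 and 167 on the pleural/pericardial arrays and 44, 31 and 40 on the peritoneal arrays. What part the RNA of thymus, lymph node or blood had in the receptor signals was not tested.

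**Figure D5:**
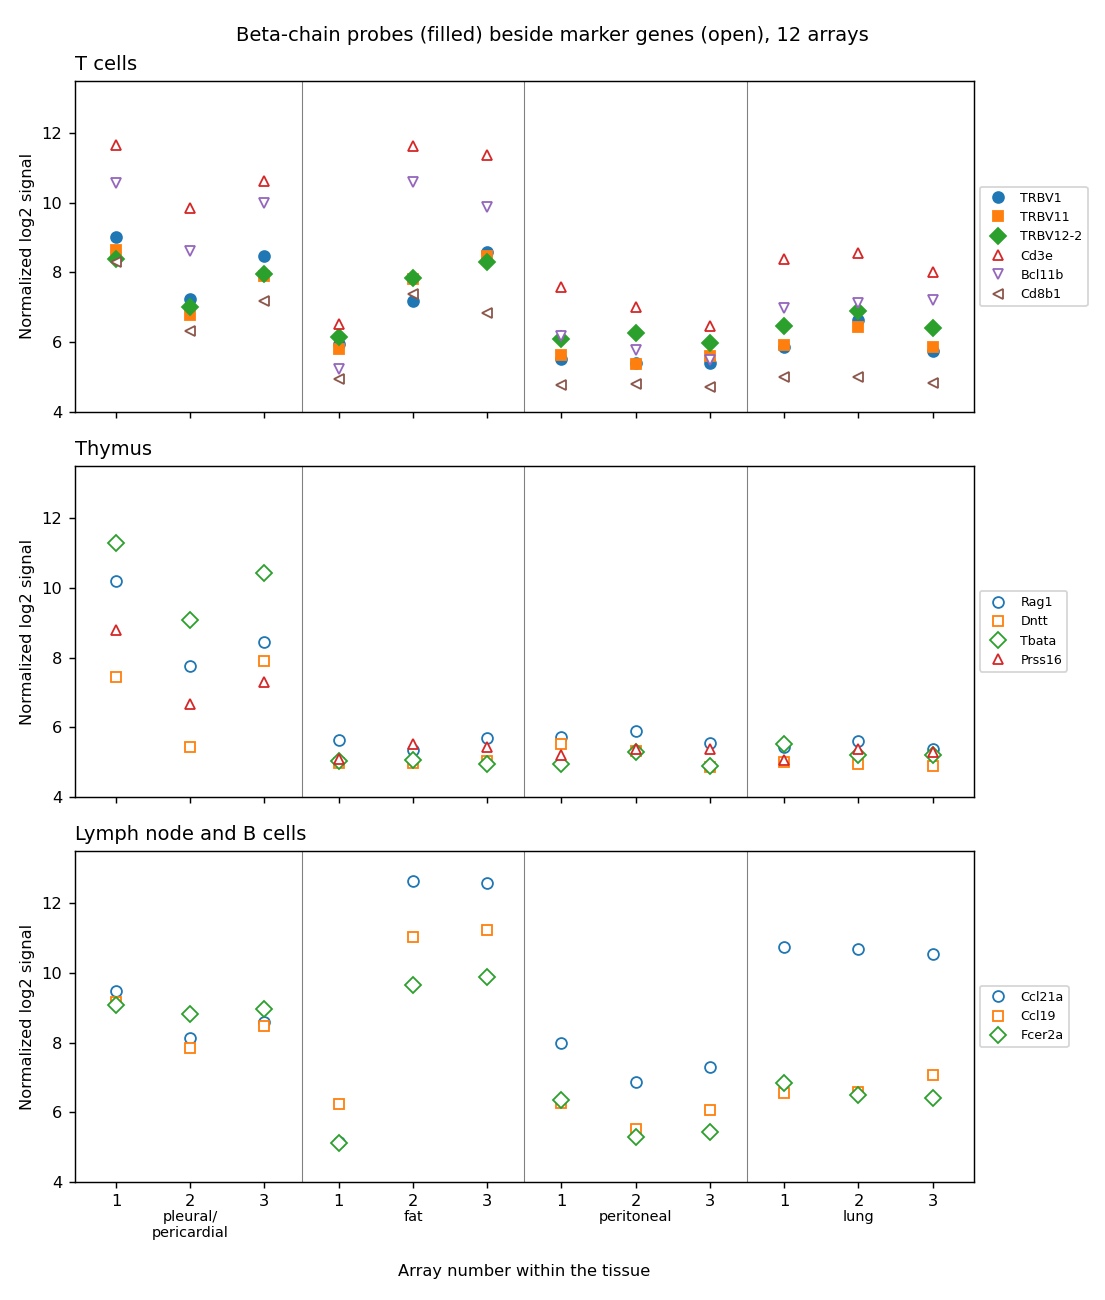
Normalized log2 signal of 3 beta probes (filled) and of T cell, thymus and lymph node genes (open) on each array of pleural/pericardial mesothelium, fat, peritoneal mesothelium and lung. Cd3e and Ccl21a are low on array 1 of fat (6.52 and 5.16) and high on its arrays 2 and 3, and of these 12 arrays Rag1 and Tbata are high on the pleural/pericardial ones.

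The labels of the tissues could be checked for some of them only. All 6 probes for the 4 mesothelial genes Wt1, Msln, Upk3b and Lrrn4 were detected on every array of both kinds of mesothelium and were called higher in pleural/pericardial mesothelium than in fat, but these genes are in lists the study picked on these arrays, so they are no independent check. Of these 6 probes, 4, 4 and 5 were also detected on the bladder arrays and 5, 2 and 3 on the lung arrays. Both heart probes were detected on arrays 2 and 3 of pleural/pericardial mesothelium and 1 of them on its array 1, and both were called higher there than in peritoneal mesothelium. The liver probe, Apoa1, gave 15.76, 15.83 and 15.72 in liver. It gave 12.71, 10.99 and 9.11 in peritoneal mesothelium, where it was called higher than in pleural/pericardial mesothelium and in fat. The skeletal muscle probe, Myh1, gave 7.30, 10.86 and 10.90 in muscle and was detected on no other array. The macrophage list (7 probes) was detected in both kinds of mesothelium and was as high in peritoneal as in pleural/pericardial mesothelium, unlike the receptor probes, with means of 9.97, 9.45 and 9.71 on the pleural/pericardial arrays, 8.58, 8.66 and 9.42 on the fat arrays and 10.07, 9.89 and 10.11 on the peritoneal arrays. Within pleural/pericardial mesothelium and within fat the order of its arrays was that of the beta probes. None of the marker genes chosen for fat, lung or bladder could be named on the array, so these labels stand unchecked.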

How the data were processed

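The authors hybridised biotinylated cRNA to Illumina Mouse Sentrix-6 BeadChips and summarised the scans in BeadStudio. The deposited table holds, for each array, a background-subtracted signal intensity, of which 36.0% were at or below 0, and a detection score that is a fraction, from which the detection p is 1 minus the score. The deposited series table holds the authors' quantile-normalized intensity, used as an alternative only. Members and lists were chosen with earlier results of these data known.

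Background was corrected with normexp in limma 3.58.1 (R 4.3.3), with negative controls inferred from the detection p (1616 implied, after 10 rows with averaged scores were left out) and an offset of 16, followed by log2 and quantile normalization. A limma fit with 1 mean per tissue over the 24 arrays gave moderated tests, adjusted over all 46120 probes by the Benjamini-Hochberg method. Calls needed a B-statistic above 0, computed for a prior share of 0.01, and a 2-fold difference. The fit was tested on simulated data.

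Values per array are given for the constant region probe, for members detected on all 3 arrays of a tissue, and for the 2 members of highest mean in each remaining chain. Likeness was ranked by Pearson correlation with the member of the highest mean, and some genes of that ranking are not reported here. Other probes named in the text by their values were chosen after these were seen. Gene names of other probes came from the study's lists or from a gene number in the identifier, looked up in the RefSeq table of GRCm38.p6, which named 10085 probes. Of 97 probes named both ways, 92 gave the same gene. Probe sequences were not used here, and the number of arrays limits the precision. Same-numbered arrays of pleural/pericardial and peritoneal mesothelium deviated together (correlations of 0.478, 0.418 and 0.520 over probes), as did those of pleural/pericardial mesothelium and liver (0.219, 0.251 and 0.264). Those of pleural/pericardial mesothelium and fat did not (−0.182, 0.051 and 0.279), and those of fat and heart had negative correlations (−0.141, −0.073 and −0.125). The main fit took no account of the array number, which entered only in an alternative, as a block over all 24 arrays. Any pairing comes from the data alone, since the labels name no batch. Alternatives changed the background step, offset, normalization, filter, call rule, prior variance, samples fitted and block, and left out each array in turn.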

Additional observations from a re-analysis of the deposited data

How the results depend on the processing

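In every alternative, members called higher in pleural/pericardial or in fat than in peritoneal mesothelium were beta probes, except that TRAV7-1 passed in fat by adjusted p alone. The 4 members called higher in pleural/pericardial than in peritoneal mesothelium became 8 with each array shifted to a minimum of 1, 8 with a trend in the prior variance, 8 by adjusted p alone, 2 among probes detected on all 3 arrays of a tissue, 1 with an offset of 50, 1 with only the arrays of the tissues compared and 0 with negative controls taken from every row. The cause was not tested. Among probes detected on all 3 arrays of a tissue the 2 called were TRBV1 and TRBV11. They passed that filter only through pleural/pericardial mesothelium, where they were high, so the counts under this filter are no separate support. The authors' normalized values gave 6, median scaling 5 and the replicate block 3, and the block changed no count by over 1.5 times. Apart from the adjusted p alone, these alternatives counted members only, so they do not show whether the calls over all probes moved as well. By adjusted p alone 5 members were higher in fat than in peritoneal mesothelium. The F test gave 5 members at an adjusted p under 0.01 and 3 among probes detected on all 3 arrays of a tissue, where fewer members were fitted, and 9 to 12 otherwise. With a detection limit of 0.05, 19 members were detected (7 alpha, 11 beta, 1 gamma) in place of 12.

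Leaving out 1 array at a time, the F test gave 6 to 12 members, pleural/pericardial over peritoneal mesothelium 0 to 9, pleural/pericardial mesothelium over fat 0 to 1 and over each of 6 tissues 0 to 1, fat over peritoneal mesothelium 0 to 5 and over each of 5 tissues 0 to 1, and no member was called lower in pleural/pericardial than in peritoneal mesothelium. Signs of small differences turned. Between pleural/pericardial and peritoneal mesothelium TRAV6-1 ranged over −0.20 to 0.37. Between fat and peritoneal mesothelium TRAV9D-2 ranged over −0.11 to 0.18, TRDV5 over −0.065 to 0.027 and TRGV6 over −0.15 to 0.27. Between pleural/pericardial mesothelium and fat TRBV11 ranged over −0.38 to 0.96, TRBV12-2 over −0.28 to 0.80 and TRGV4 over −0.34 to 0.074. With each array shifted to a minimum of 1, the differences between fat and peritoneal mesothelium were −0.0026 for TRAV9D-2, −0.082 for TRGV6 and 0.030 for TRDV5. TRBV12-2 was called in pleural/pericardial over peritoneal mesothelium with that shift (1.20) and with the authors' values (2.24), and TRBV11 was not with an offset of 50 (1.66). The filter on dim probes gave no value for members never detected. Signals near background limit what can be read for the alpha, gamma and delta probes, and 3 arrays a tissue limit the rest.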
